A study of Mus musculus with 9 samples.

Results

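Nuclear genes for the respiratory chain were followed in the liver of mice on diets that differed in protein and fat. A gene was a member when its symbol in the array annotation began with Nduf, Sdha to Sdhd, Uqcr, Cox plus a digit, or Atp5, and 101 of the 19938 genes with a probe set that names no other gene met this rule. They comprised 73 subunits, 19 assembly factors and 9 other isoforms or regulators. For each gene the probe set with the highest mean was used, and values are log2 intensities. Diets were low (LF) or high (HF) in fat, with 10% or 35% of energy from it, and normal (NP) or high (HP) in protein, with 15% or 50%. Male C57BL/6J mice all ate the LF-NP diet during a run-in. A reference group was killed at week 0, at 12 weeks of age as labelled. The others stayed on LF-NP or changed to LF-HP, HF-NP or HF-HP for 1 week (labelled 13 weeks of age) or 12 weeks (labelled 22 weeks of age). Every liver was taken 2 hours after a calibrated meal. RNA of 5 mice was pooled per diet and week and put on 1 array, so there were 9 pools, 4 of them HP and 4 NP after the run-in, and the spread between mice was not measured. Because the HP diets replaced carbohydrate with milk protein, more protein and less carbohydrate cannot be told apart.

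The respiratory chain sits in the inner mitochondrial membrane. Complex I takes electrons from NADH and complex II from succinate, ubiquinone carries them to complex III, cytochrome c carries them on to complex IV, and ATP synthase uses the proton gradient that results. The mature complexes are built from nuclear and mitochondrial gene products with the help of assembly factors, which insert haem, copper, flavin and iron-sulphur clusters or hold intermediates together and then leave. Liver is rich in mitochondria, and hepatocytes use the chain for ATP supply and to reoxidise the NADH that fat and amino acid breakdown yield. The 13 subunits encoded by mitochondrial DNA have no named probe set here and were not analysed. Also left out were 5 nuclear symbols whose only probe sets name another gene as well. They were Cox7c, Cox16, Ndufb4, Ndufb4b and Ndufs5-ps, while Ndufs5 has a probe set of its own and is a member.

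The promoters of 6 members are shown first, because their diet values are described below. Cox7a1 had the largest difference between HP and NP pools and Cox11 the smallest adjusted p. Sdhb, Uqcrh and Atp5g3 differed between HP and NP pools at an unadjusted p under 0.05. Within the stretches shown, each of them held a match to a different motif. Atp5k had the largest difference between weeks. Each stretch holds the 120 bases before the RefSeq start site in the mouse assembly GRCm38.p6, read 5′ to 3′ on the strand of the gene. The positions are chr7:30184051-30184170 (plus strand) for Cox7a1, chr11:90638064-90638183 (plus strand) for Cox11, chr4:140961151-140961270 (plus strand) for Sdhb, chr4:116075071-116075190 (minus strand) for Uqcrh, chr2:73911327-73911446 (minus strand) for Atp5g3 and chr5:108434400-108434519 (minus strand) for Atp5k. Capitals mark matches to GCGCATGC, the core of the NRF1 site, in Sdhb and Atp5k, to CCGGAAG, the core read by GABPA and other ETS factors, in Uqcrh, and to TCAAGGTCA, the ERRA element, in Atp5g3, on either strand. In Atp5k a match on each strand overlaps the other. Past the start site, outside these stretches, Sdhb and Atp5k each also held a match to CCGGAAG.
Cox7a1: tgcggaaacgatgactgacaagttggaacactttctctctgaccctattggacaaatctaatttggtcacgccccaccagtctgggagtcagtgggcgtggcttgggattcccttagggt
Cox11: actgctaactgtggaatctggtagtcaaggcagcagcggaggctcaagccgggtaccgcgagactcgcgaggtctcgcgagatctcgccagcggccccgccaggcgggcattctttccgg
Sdhb: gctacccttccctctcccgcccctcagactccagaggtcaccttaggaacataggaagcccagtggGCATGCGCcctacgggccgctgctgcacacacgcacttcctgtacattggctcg
Uqcrh: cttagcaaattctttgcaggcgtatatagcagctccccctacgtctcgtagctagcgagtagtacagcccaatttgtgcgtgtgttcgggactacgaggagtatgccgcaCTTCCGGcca
Atp5g3: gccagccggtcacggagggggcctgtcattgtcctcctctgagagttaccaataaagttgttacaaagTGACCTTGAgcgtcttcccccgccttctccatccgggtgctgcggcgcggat
Atp5k: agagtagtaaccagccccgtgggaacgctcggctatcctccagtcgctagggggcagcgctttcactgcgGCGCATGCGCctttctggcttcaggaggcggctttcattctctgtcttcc

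In HP-fed mice the subunits stood slightly above their level in NP-fed mice, and they did so across all complexes. The HP minus NP difference, taken from a fit with fat level and week as additive terms, was positive in 72 of 73 subunits and its median was 0.15 (log2), or 1.11-fold. The exception was Ndufa6, an accessory subunit of complex I, at -0.01. Among the 19 assembly factors 12 differences were positive and the median was 0.04. Among the 9 other isoforms and regulators 2 were positive and the median was -0.03. All genes had a median of 0.00, with 48.1% of the differences positive. The genes above the median level, to which all 73 subunits belong, had a median of -0.01 with 46.3% positive. These sets were not matched in level. The median of the mean level was 10.37 for subunits, 7.7 for assembly factors and 7.7 for the genes above the median level. The part of level in these contrasts was not tested. No single member passed the test: with limma, which fits a linear model to every gene and shares the spread between genes, and Benjamini-Hochberg adjustment over all genes, 0 of 101 members had an adjusted p under 0.05, against 0.441% of all genes (88 genes). At an unadjusted p under 0.05, 32 members were higher in HP pools, or 31.7%, against 4.59% of all genes and 6.84% of the genes above the median level. In the other direction 1 member, Cox8b, was lower at this level, against 5.66% of all genes. Of the 32, 29 were subunits (39.7% of subunits), 2 were assembly factors (10.5%) and 1 was an isoform, Cox7a1. Leaving out the LF-NP pool of 12 weeks gave 21 in place of 32, and leaving out any other single pool gave 42 at most. With the 1-week pools alone 6 members reached this level, and with the 12-week pools alone 8.

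**Figure D1:**
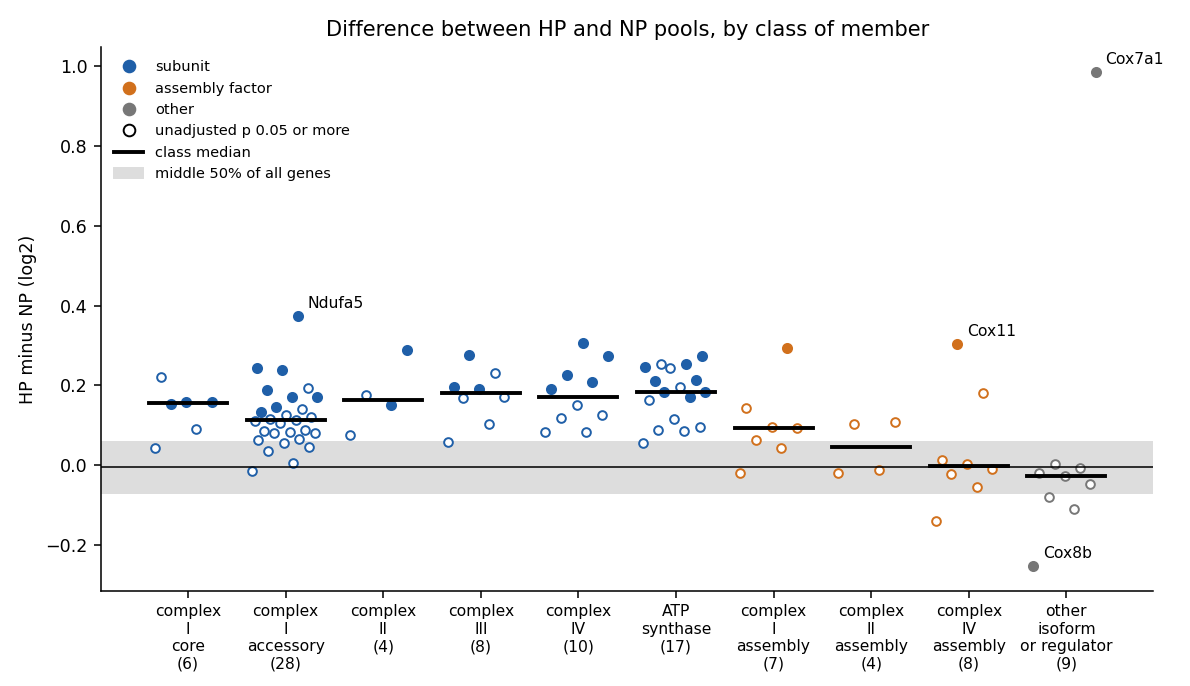
HP minus NP difference on the log2 scale (vertical axis) for each of the 101 members (points), grouped by class with the number of genes in brackets. Filled points had an unadjusted p under 0.05, thick bars are class medians and the grey band holds the middle 50% of all genes around their median (thin line). Every subunit class has its median above the band, from 0.11 for accessory subunits of complex I to 0.18 for ATP synthase, while the medians of complex II and complex IV assembly factors lie inside it.

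The order of the pools was compared without a fit as well. In 18 members every HP pool lay above every NP pool, against 1.88% of all genes, and 16 of the 18 were subunits. In 0 members did every HP pool lie below every NP pool, against 2.91% of all genes. When each HP pool was paired with the NP pool that matched it in fat and week, 46 members, 43 of them subunits, were higher in all 4 comparisons, against 6.01% of all genes, and 0 were lower in all 4, against 8.11% of all genes. Of the 19 assembly factors, Cox11 and Ndufaf5 were higher in all 4.

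Markers of the cell types of liver were compared in the same fit. Over 6 Kupffer cell markers the median difference was -0.17. Clec4f was lower at an unadjusted p under 0.05, while Marco differed by 0.21. Over 4 endothelial markers the median was -0.07. Kdr was lower at this level, while Stab2 differed by 0.14. The erythroid gene Alas2 differed by -0.30 and was also lower at this level. Stellate cell, cholangiocyte and B cell markers had medians of -0.06, -0.04 and -0.10, with none higher or lower at this level. Of all genes 4.59% were higher and 5.66% lower at this level. The groups overlapped in the mean level of these markers: Kupffer cell markers averaged 7.19 to 7.95 in HP pools and 7.51 to 7.91 in NP pools, endothelial markers 8.53 to 8.86 and 8.60 to 8.84, and Alas2 was at 9.16 to 9.67 and 9.51 to 9.77. Hepatocyte markers had a median difference of -0.01, 1 of 5 being higher at this level, with a mean level from 13.23 to 13.32 and from 13.21 to 13.26. The part of other cell types in the members' values was not tested. A different number of cells of a type and a different amount of RNA per cell cannot be told apart in pooled liver.

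Complex I passes electrons from NADH to ubiquinone through a matrix arm and pumps protons through a membrane arm. All 6 measured core subunits had positive differences with a median of 0.16, and 3 reached an unadjusted p under 0.05. Ndufs3, a core subunit at the ubiquinone side of the matrix arm, averaged 10.89 ± 0.06 in HP pools and 10.74 ± 0.13 in NP pools (SD, n = 4 each). Its difference was 0.16 (standard error 0.06, adjusted p = 0.406). Ndufv1, which binds FMN and oxidises NADH, differed by 0.15 (adjusted p = 0.454), and Ndufv2, its iron-sulphur partner, by 0.16 (adjusted p = 0.482). Ndufs1, the largest iron-sulphur subunit of the NADH end, had the widest difference of the core, 0.22, with the largest error, 0.11. At 12 weeks its NP pools were both at 9.07 and its HP pools at 9.58 and 9.47, whereas at 1 week NP pools (9.63 and 9.58) and HP pools (9.71 and 9.47) overlapped. Ndufs7, an iron-sulphur subunit near the ubiquinone site, had the smallest difference of the core, 0.04, with pools that overlapped.

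Of the 28 accessory subunits of complex I, which surround the core without carrying electrons, 27 had positive differences, 8 reached an unadjusted p under 0.05 and the median was 0.11. Ndufa5, of the matrix arm, had the largest difference of all subunits. Its values were 7.45 and 7.49 in the LF-NP and HF-NP pools of 1 week and 7.13 and 7.14 in those of 12 weeks. The HP pools stood at 7.88 (LF) and 7.62 (HF) at 1 week and at 7.52 and 7.69 at 12 weeks. All HP pools lay above all NP pools and above the reference pool at 7.38. The difference was 0.37 (standard error 0.08, 1.30-fold), with an adjusted p of 0.153. Ndufc1, a small membrane-arm subunit, differed by 0.24 (adjusted p = 0.277) and Ndufa11, also of the membrane arm, by 0.17 (adjusted p = 0.299). For Ndufa11 the pools did not overlap: the lowest HP pool was at 10.14 and the highest NP pool at 10.10. A second probe set of Ndufa11, with a lower mean (9.29), had a difference of only 0.02. The differences of the remaining accessory subunits ran from -0.01 to 0.24.

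Complex II, succinate dehydrogenase, is the one complex of the chain that is also an enzyme of the TCA cycle, and all its subunits are nuclear. Its 4 genes were each higher in all 4 matched comparisons. Sdhb, the iron-sulphur subunit, whose promoter with an NRF1 match is shown above, stood at 11.04 and 10.98 in the LF-HP and HF-HP pools of 1 week and at 10.94 and 10.97 in those of 12 weeks. NP pools were at 10.79 and 10.89 at 1 week and at 10.58 and 10.52 at 12 weeks. The HP pools were close together, with an SD of 0.04 against 0.17 in NP pools, and none overlapped. The difference was 0.29 (standard error 0.07, 1.22-fold, adjusted p = 0.191). Sdha, the flavoprotein, differed by 0.15 (adjusted p = 0.43), and the membrane anchors Sdhd and Sdhc by 0.17 (adjusted p = 0.53) and 0.08 (adjusted p = 0.747).

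Complex III hands electrons from ubiquinol to cytochrome c. All 8 subunits that met the symbol rule had positive differences, the median was 0.18, and 3 reached an unadjusted p under 0.05. Cyc1, the cytochrome c1 of this complex, fell outside the rule and differed by 0.17 (adjusted p = 0.355). Uqcrh, the hinge protein that touches cytochrome c, stood at 10.77 and 10.79 in the LF-HP and HF-HP pools of 1 week and at 10.70 and 10.97 in those of 12 weeks. In the same order the NP pools were at 10.59, 10.49, 10.57 and 10.48. No pools overlapped, and the difference was 0.28 (standard error 0.08, adjusted p = 0.238). Uqcrc1, a core protein of the matrix side, differed by 0.20 (adjusted p = 0.267), and Uqcr11, a small subunit, by 0.19 (adjusted p = 0.356). Uqcrq, another small subunit, had the smallest difference, 0.06. For Uqcrb, a subunit beside the ubiquinone site, HP lay above NP on LF (12.13 against 11.76 at 1 week and 12.29 against 11.79 at 12 weeks) and below it on HF (11.92 against 12.03, and 12.01 against 12.09).

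Complex IV, cytochrome c oxidase, reduces oxygen to water. All 10 subunits had positive differences, the median was 0.17 and 5 reached an unadjusted p under 0.05. Cox5a, which sits on the matrix side, had the largest, 0.31 (standard error 0.09, 1.24-fold, adjusted p = 0.247). Cox4i1, the common isoform of a subunit that helps set the activity of the enzyme, stood at 10.42 in both HP pools of 1 week and at 10.21 (LF) and 10.29 (HF) in those of 12 weeks. The NP pools were at 10.13 and 10.25 at 1 week and at 10.09 and 9.77 at 12 weeks, the last being the HF-NP pool, the lowest of all 9. The HF-NP pool of 1 week lay above the LF-HP pool of 12 weeks, so the groups overlapped. The difference was 0.27 (adjusted p = 0.277). Cox6b1, on the side of cytochrome c, differed by 0.23 (adjusted p = 0.238), and Cox5b had the smallest difference, 0.08.

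ATP synthase makes ATP as protons return through its membrane ring. All 17 subunits had positive differences, 8 reached an unadjusted p under 0.05, 6 had HP pools above all NP pools and the median was 0.18. Atp5pb, the b subunit of the peripheral stalk, stood at 10.93 and 10.82 (LF-HP and HF-HP) at 1 week and at 10.80 and 10.86 at 12 weeks. The NP pools of this gene were at 10.72 and 10.73 at 1 week and at 10.39 and 10.49 at 12 weeks. The difference was 0.27 (standard error 0.07, adjusted p = 0.232). Atp5o, which joins the stalk to the catalytic head, differed by 0.25 (adjusted p = 0.243). Of the genes for the proton-carrying c subunit, Atp5g3, with an ERRA match in its promoter, differed by 0.21 (adjusted p = 0.235) and Atp5g1 by 0.25 (adjusted p = 0.243), while Atp5g2 differed by 0.09 at an adjusted p of 0.722. The catalytic beta subunit, Atp5b, had closely grouped values: its HP pools ran from 12.80 to 12.84 and its NP pools from 12.69 to 12.72, a difference of 0.12 (adjusted p = 0.491). Atp5j, of the peripheral stalk, had the smallest difference, 0.06, and its pools overlapped.

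**Figure D2:**
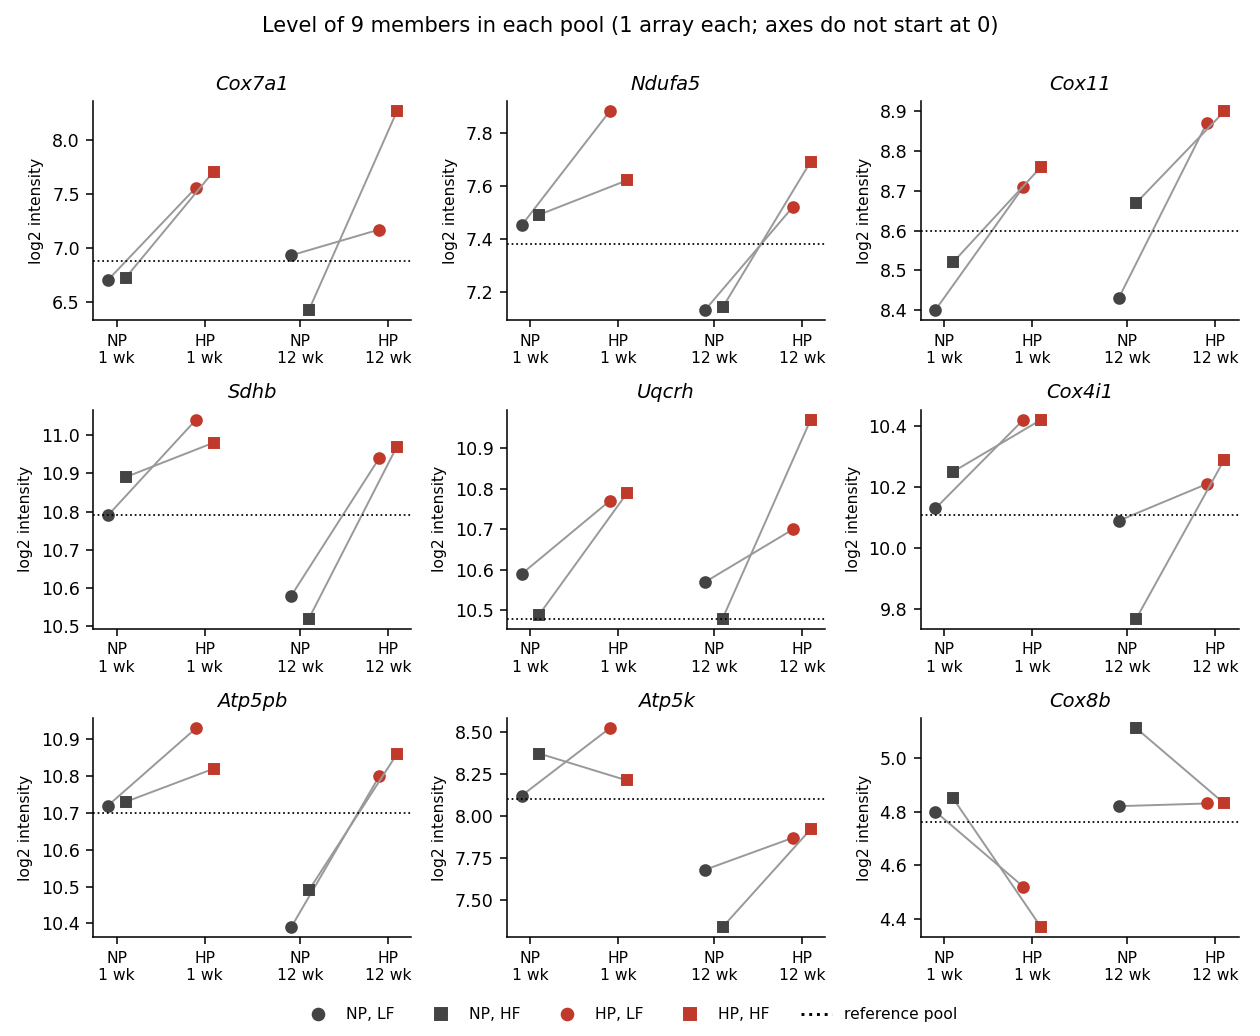
Log2 intensity (vertical axes, which do not start at 0) of 9 members in each diet pool, 1 array per point, with NP pools in grey and HP pools in red, circles for LF, squares for HF and a dotted line at the reference pool. Lines join pools matched in fat and week. For Cox7a1, Ndufa5, Cox11, Sdhb, Uqcrh and Atp5pb all red points lie above all grey ones. Atp5k separates by week, and for Cox8b the HP pools of 1 week are lowest.

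The assembly factors differed among themselves. For complex I, 6 of 7 differences were positive with a median of 0.09. Ndufaf5, which modifies the core subunit Ndufs7 during assembly, had values of 5.16 and 5.42 (LF-HP and HF-HP) at 1 week and 5.20 and 5.48 at 12 weeks, against 5.02, 5.17, 4.97 and 4.92 in the NP pools. The difference was 0.29 (standard error 0.08, adjusted p = 0.23), with 1 HF-NP pool just above 1 LF-HP pool. Ndufaf6 and Ndufaf1, needed for early intermediates, differed by 0.14 (adjusted p = 0.674) and 0.09 (adjusted p = 0.802), and Ndufaf3 by -0.02. For complex II the differences were 0.11 for Sdhaf4, 0.10 for Sdhaf3, -0.01 for Sdhaf2, which helps attach flavin to Sdha, and -0.02 for Sdhaf1, which helps load iron-sulphur clusters into Sdhb. None of these 4 had an unadjusted p under 0.05, and a second probe set of Sdhaf4 had a difference of the opposite sign.

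The complex IV factors held the member with the smallest adjusted p and also the assembly factor with the lowest difference, and 4 of 8 differences were positive. Cox11, which delivers copper to the catalytic core, stood at 8.71 and 8.76 (LF-HP and HF-HP) at 1 week and at 8.87 and 8.90 at 12 weeks. Its NP pools were at 8.40 and 8.52 at 1 week and at 8.43 and 8.67 at 12 weeks, and none reached the lowest HP pool. The difference was 0.30 (standard error 0.06, 1.23-fold) with an adjusted p of 0.0997, the smallest of all members. When only genes above the median level were tested, its adjusted p was 0.046. Cox10, which with Cox15 makes the haem A of the enzyme, differed by 0.18 (adjusted p = 0.509), while Cox15 itself differed by -0.01. Cox19, a protein of the copper route, differed by -0.14 (adjusted p = 0.61), and Cox17, the copper chaperone before Cox11, by 0.00. Cox17 had a value of 5.01 in all 4 pools of 1 week and in the reference pool.

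Assembly factors outside the symbol rule gave a median between those of the subunits and the other assembly factors. Of 37 such genes 31 had positive differences with a median of 0.08. At an unadjusted p under 0.05, 2 were higher, or 5.41%. This was near the share of all genes (4.59%) and of the genes above the median level (6.84%). They were Foxred1, for complex I, by 0.21 (adjusted p = 0.327) and Cmc1, for complex IV, by 0.22 (adjusted p = 0.339). The complex III factors Uqcc1, Uqcc2 and Uqcc3 differed by 0.06, 0.01 and 0.13, with adjusted p-values from 0.648 to 0.988.

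The widest difference of any member belonged to an isoform best known from muscle. Cox7a1 encodes the heart and skeletal muscle form of a complex IV subunit, whose liver form is Cox7a2. It stood at 7.56 and 7.71 (LF-HP and HF-HP) at 1 week and at 7.17 and 8.27 at 12 weeks. Its NP pools were at 6.70 and 6.72 at 1 week and at 6.93 and 6.42 at 12 weeks, and the reference pool was at 6.88. All HP pools lay above the other pools, the smallest step being that of the LF pools at 12 weeks. The difference was 0.99 (standard error 0.22, 1.98-fold) with an adjusted p of 0.155, and it was 0.74 once the 12-week HF-HP pool was left out and 1.20 once the 12-week LF-HP pool was. Cox7a2 differed by 0.19 (adjusted p = 0.379). The skeletal muscle markers Acta1, Ckm, Myh4 and Mb were low in all pools, with a mean level from 5.36 to 5.56 in HP pools and from 5.22 to 5.51 in NP pools, their median difference was 0.09, and 0 of 4 had an unadjusted p under 0.05 in limma.

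The other tissue isoforms were low and did not follow the subunits. Cox8b, the heart and muscle form of another complex IV subunit, was at 4.52 and 4.37 (LF-HP and HF-HP) at 1 week and at 4.83 in both HP pools of 12 weeks. Its NP pools were at 4.80, 4.85, 4.82 and 5.11, so only the HP pools of 1 week lay below them. The difference was -0.25 (standard error 0.09, adjusted p = 0.355). Cox4i2, Cox6a2, Cox6b2, Cox7b2, Cox8c and Ndufa4l2, forms best known from lung, muscle, testis or hypoxic cells, had differences from -0.11 to 0.00. Cox7a2l, counted here as a regulator and not as a tissue isoform, differed by -0.08 (adjusted p = 0.802).

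The 4 matched comparisons were then read one by one. On LF at 1 week the subunits had a median HP minus NP difference of 0.17 and 68 of 73 were positive, while 8 of 19 assembly factors were positive with a median of -0.01. On HF at 1 week the medians were 0.04 and -0.08, with 52 subunits and 6 assembly factors positive. On LF at 12 weeks they were 0.12 and -0.08, with 62 and 7 positive. On HF at 12 weeks both medians were 0.23, and 70 subunits and 18 assembly factors were positive. The genes above the median level had medians of -0.02, -0.01, -0.07 and 0.08 in the same order. The median of the subunits lay above that of the assembly factors in the first 3 comparisons and level with it in the last. The arrays differed in level: the median of the genes above the median level was 7.62 on the HF-NP array and 7.75 on the HF-HP array of 12 weeks. It was 7.60 on the LF-HP array of 12 weeks and from 7.70 to 7.76 on the other arrays. With every array centred on these genes the HP minus NP median was 0.17 for subunits and 0.06 for assembly factors.

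**Figure D3:**
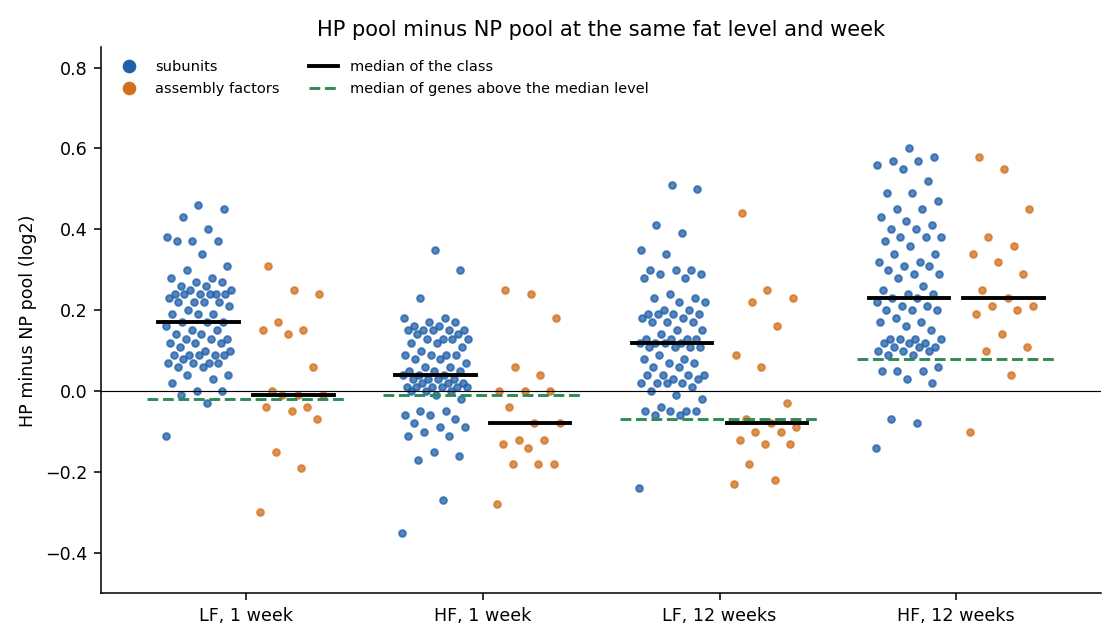
HP pool minus NP pool on the log2 scale (vertical axis) at each fat level and week (horizontal axis), for the 73 subunits (blue) and 19 assembly factors (orange), with class medians (black bars) and the median of genes above the median level (dashed green). The medians of subunits and assembly factors are apart in the first 3 comparisons and equal, at 0.23, on HF at 12 weeks.

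Whether the protein difference depended on fat or week was tested with interaction terms. For protein by fat, 0 members had an adjusted p under 0.05 in limma (0.0% of all genes). At an unadjusted p under 0.05 there were 5 members, or 4.95%, below the 7.02% of all genes. They were Uqcrb, with an HP minus NP difference lower by 0.53 on HF (interaction -0.53, standard error 0.11, adjusted p = 0.547), and Ndufs5, Cox7b and Atp5md, whose interactions were -0.47, -0.34 and -0.33 (adjusted p from 0.687 to 0.706). The fifth was Cox7a1, with an interaction of 0.87 (standard error 0.32, adjusted p = 0.706). For protein by week 0 members had an adjusted p under 0.05 (0.0% of all genes). At an unadjusted p under 0.05 there were 3 members, or 2.97%, near the 2.62% of all genes. These were Ndufs1, Uqcrfs1, the Rieske iron-sulphur protein of complex III, and Ndufb6, an accessory subunit of complex I. Their interactions were 0.47, 0.39 and 0.36, with a wider difference at 12 weeks.

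Differences between HF and LF pools were small. Between HF and LF pools 0 members had an adjusted p under 0.05 (0.0% of all genes), and 0 members had an unadjusted p under 0.05 in limma, against 3.33% of all genes. The subunits had a median HF minus LF difference of -0.01 and the assembly factors of 0.05. The widest differences were those of Cox7a1 (0.19, standard error 0.22) and Ndufaf5 (0.16, standard error 0.08) above 0, and of Cox7a2l (-0.12) and Ndufa6 (-0.11) below it.

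Most subunits had lower values at 12 weeks than at 1 week. The 12-week minus 1-week difference was negative in 60 of 73 subunits with a median of -0.11, and in 17 of 19 assembly factors with a median of -0.05. All genes had a median of -0.01 and the genes above the median level of -0.04. No member had an adjusted p under 0.05 in limma, against 0.00502% of all genes (1 gene). At an unadjusted p under 0.05, 26 members were lower at 12 weeks, 22 of them subunits (30.1%), against 5.3% of all genes and 9.27% of the genes above the median level, and 2, Cox7b and Cox8b, were higher, against 2.42%. In 15 members every pool of 12 weeks lay below every pool of 1 week, against 2.1% of all genes and 3.73% of the genes above the median level. Atp5k, the e subunit, which joins ATP synthases into rows, and whose promoter is shown above with overlapping NRF1 matches, stood at 8.12, 8.52, 8.37 and 8.21 (LF-NP, LF-HP, HF-NP, HF-HP) at 1 week. It was at 7.68, 7.87, 7.34 and 7.92 at 12 weeks, and the weeks did not overlap. The difference was -0.60 (standard error 0.11, adjusted p = 0.476). Atp5mpl, a small subunit of ATP synthase, differed by -0.42 (adjusted p = 0.564) and Uqcr11 by -0.36 (adjusted p = 0.467). With arrays centred on the genes above the median level 12 members were lower and 5 higher, with a subunit median of -0.05. Without the HF-NP and LF-HP pools of 12 weeks 8 were lower, with a subunit median of -0.08. Leaving out 1 pool gave 14 without the HF-NP pool of 1 week, 14 without the HF-NP pool of 12 weeks, 15 without the LF-NP pool of 1 week and 16 without the LF-HP pool of 12 weeks.

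Against the reference pool of week 0, which is 1 pool and allows no test, subunits were highest after 1 week of LF-HP and lowest after 12 weeks of HF-NP. The medians over subunits were 0.02 in LF-NP, 0.20 in LF-HP, 0.05 in HF-NP and 0.09 in HF-HP at 1 week. At 12 weeks they were -0.08, 0.04, -0.15 and 0.08 in the same order. Of the 73 subunits 71 (97.3%) were above the reference in the LF-HP pool of 1 week and 14 (19.2%) in the HF-NP pool of 12 weeks, against 50.1% and 36% of the genes above the median level. Among the 8 diet pools 43 subunits (58.9%) had their highest value in the LF-HP pool of 1 week and 49 (67.1%) their lowest in the HF-NP pool of 12 weeks. Of the genes above the median level 11.3% were highest in the former and 24.2% lowest in the latter, whose array is 1 of the 2 with a lower level of these genes, and its part in the subunit values was not tested. Assembly factors had medians of 0.15 in the HF-HP and -0.17 in the HF-NP pool of 12 weeks.

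**Figure D4:**
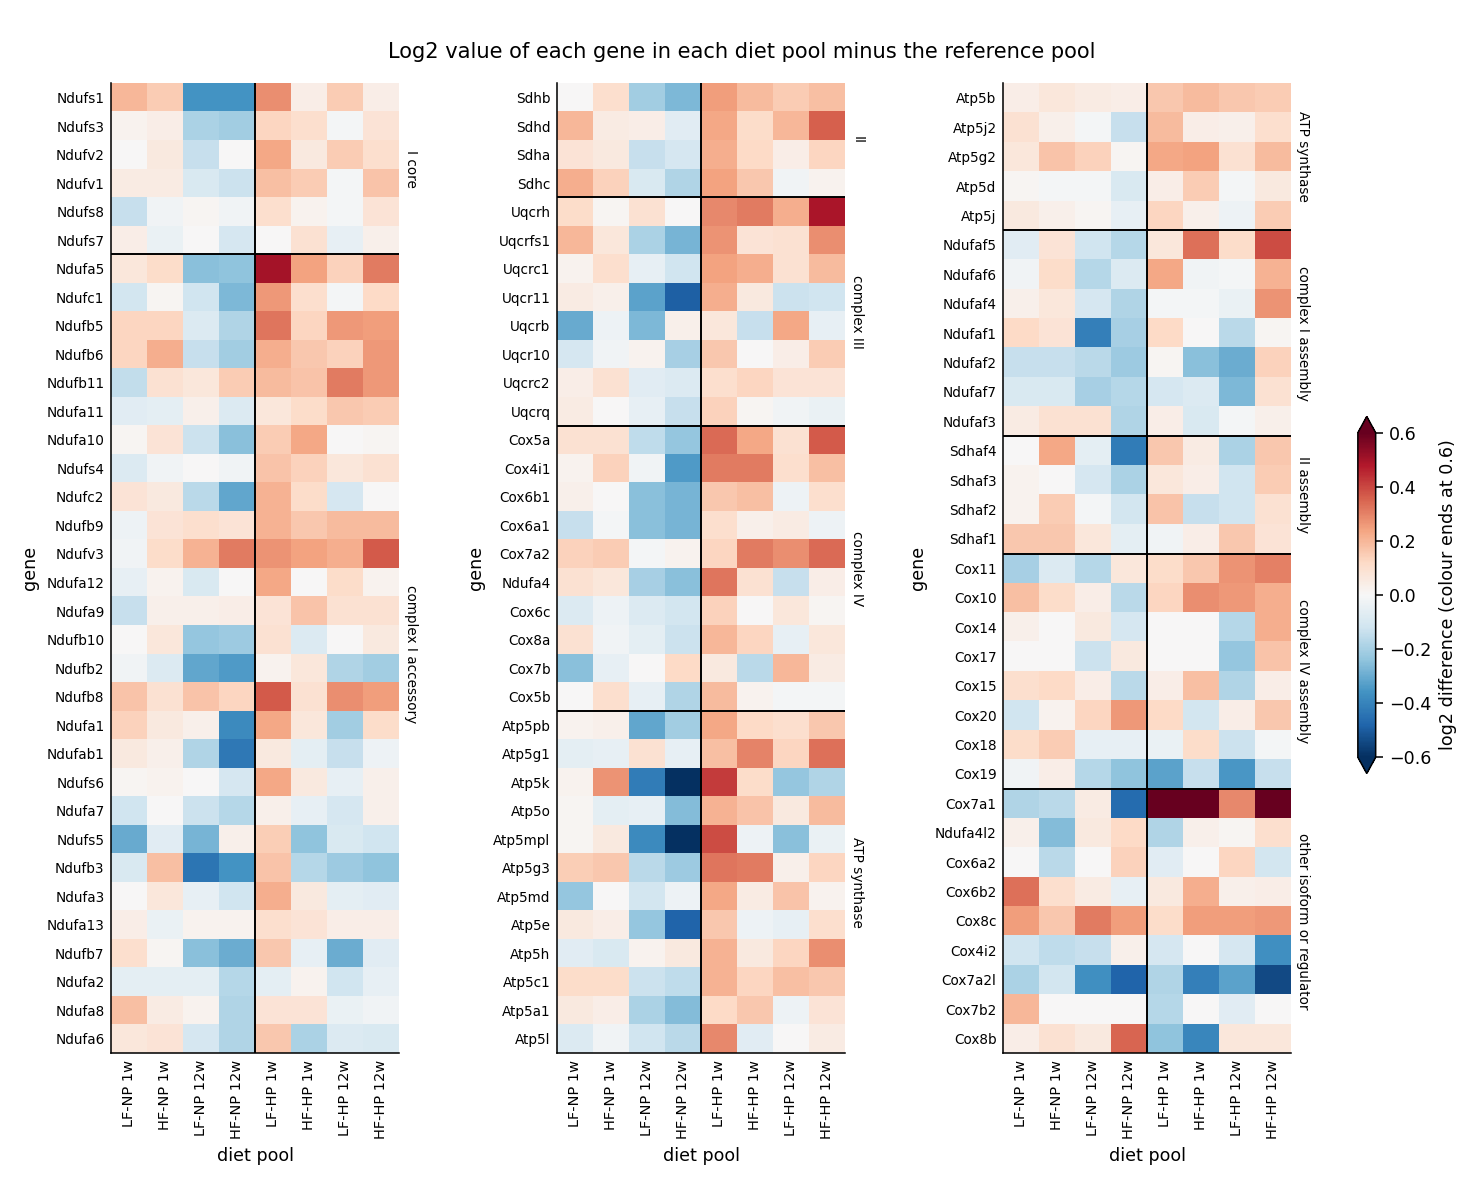
Log2 value of each of the 101 members (rows, grouped by class and ordered by HP minus NP difference) in each diet pool (columns, NP pools left of the line and HP pools right of it) minus the reference pool, in red where above and blue where below, with 4 cells beyond the colour range. Subunits are red in most HP columns and blue in the HF-NP column of 12 weeks, where 14 of 73 were above the reference, and Cox7a1 has the deepest red.

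Regulators of respiratory genes lay in both directions. Of 14 genes listed, 2 were higher (14.3%) and 2 lower (14.3%) in HP pools at an unadjusted p under 0.05. The shares of all genes were 4.59% and 5.66%, and those of the genes above the median level 6.84% and 9.26%. The median difference of the 14 genes was -0.01. Ppargc1a, the coactivator PGC-1alpha, stood at 9.15 and 9.47 (LF-HP and HF-HP) at 1 week and at 8.68 and 9.79 at 12 weeks. Its NP pools were at 7.90 in both cases at 1 week and at 8.18 and 7.64 at 12 weeks. The difference was 1.36 (standard error 0.22), with an adjusted p of 0.0592. Its highest and lowest pools were those in which Cox7a1 was highest and lowest. Esrra, the nuclear receptor ERRalpha, differed by 0.16 (adjusted p = 0.352), and Gabpa and Yy1, which bind respiratory gene promoters, by -0.25 (adjusted p = 0.273) and -0.18 (adjusted p = 0.376). Nrf1 differed by -0.05 (adjusted p = 0.902).

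Genes that feed electrons into the chain or make its ubiquinone passed the test in 2 cases, both lower in HP pools. Of 20 such genes 5 were higher and 2 lower at an unadjusted p under 0.05, against 4.59% and 5.66% of all genes. The higher ones were Coq10b by 0.50 (adjusted p = 0.0788), Coq8b by 0.33 (adjusted p = 0.34) and Coq3 by 0.24 (adjusted p = 0.242). Coq9 by 0.23 (adjusted p = 0.226) and Cyc1 by 0.17 (adjusted p = 0.355) were the others. The lower ones were Gpd2 and Coq8a. Gpd2, the glycerol phosphate dehydrogenase of the inner membrane that passes electrons to ubiquinone, stood between 8.66 and 8.87 in HP pools and between 9.33 and 9.53 in NP pools. It fell by 0.63, with a standard error of 0.05 and an adjusted p of 0.0109. Coq8a, needed for ubiquinone synthesis, stood between 9.68 and 9.83 in HP pools and between 10.14 and 10.42 in NP pools and fell by 0.53 (standard error 0.08, adjusted p = 0.0481). Cycs, cytochrome c, differed by 0.05. Of 7 genes for uncoupling and ADP exchange 2 (28.6%) were higher at an unadjusted p under 0.05, against 4.59% of all genes. They were Vdac2, a channel of the outer membrane, by 0.18 (adjusted p = 0.454) and Slc25a3, the phosphate carrier, by 0.15 (adjusted p = 0.474).

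The motifs shown in capitals above, and a YY1 motif, were looked up in the promoters of all members, from 250 bases before to 50 after the start. RefSeq promoters were matched for 83 of 101 members, with 88 promoters in all, 67 of them of subunits and 16 of assembly factors. Matches on both strands were counted. The NRF1 core GCGCATGC was present in 14.9% of subunit promoters and 12.5% of assembly factor promoters, against 2.71% of all 32851 promoters and 5.29% of those of genes above the median level. The ETS core CCGGAAG was present in 25.4% and 50.0%, against 8.86% and 17.4%. The ERRA element TCAAGGTCA was present in 2 subunit promoters, of Atp5g3 and Sdhd, or 2.99%, against 0.423% and 0.311%, and AAGATGGC, a YY1 motif, in 14.9% of subunit and 12.5% of assembly factor promoters, against 2.75% and 4.53%. Among the subunits with an unadjusted p under 0.05 between HP and NP, 17.9% of promoters held the NRF1 core and 28.6% the ETS core, and among the other subunits 12.8% and 23.1%. The YY1 motif was the rarer one among the former, in 10.7% against 17.9%, and the ERRA element was in 1 promoter of each. Cox7a1 and Cox11 held none of these letters in the stretches shown. A match describes the sequence and does not show that a factor was bound.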

How the data were processed

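Liver RNA pools were hybridised to Affymetrix Mouse Gene 1.0 ST arrays. The deposited values are log2 intensities per probe set, which the authors made by robust multiarray analysis (background correction, quantile normalisation, probe set summary). The methods describe remapped probe sets, whereas the table holds the identifiers of the array's own annotation. Values ran from 1.41 to 14.46, array medians differed by at most 0.064, and arrays correlated at 0.988 to 0.993. An array holds no counts, so the precision depends on how many arrays there are.

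Of 35556 probe sets, 21789 had 1 gene symbol, 1621 several and 12146 none, and the first kind was kept. For each gene the probe set with the highest mean was taken. Among the members 18 genes had 26 further probe sets, 1 of them with an opposite HP minus NP sign. Several probe sets of a gene can stand for near-identical copies of it.

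HP and NP, HF and LF, and 12 weeks and 1 week were compared in R 4.3.3 by limma 3.58.1 (lmFit and eBayes, additive terms, 8 diet pools, 4 residual degrees of freedom, prior degrees of freedom 3.52), with Benjamini-Hochberg adjustment over all 19938 genes and a threshold of 0.05. Interactions came from fits with 1 more term. There is 1 pool per diet and week, so pools of other diets and weeks stand in as replicates, and p-values measure the spread between pools. The reference pool entered no fit. Scripts were tested on simulated data. Tables and figures were made in Python 3.11.15 with pandas 2.3.3, NumPy 2.4.6, SciPy 1.17.1 and matplotlib 3.10.9. Promoters are from RefSeq (GRCm38.p6).

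Named genes are, per class, the 3 members with the smallest p and the members with the largest and smallest difference between HP and NP, the 2 largest differences each way for fat and week, and of each further list the genes past the threshold or its first 3. Genes named beyond these were chosen after their values were seen. Members and lists were chosen with earlier results of these data known. Alternatives were a level filter, array weights, centring, an intensity trend, the mean of probe sets, matched comparisons as blocks, no covariates, subsets of pools and leaving out each pool.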

Additional observations from a re-analysis of the deposited data

Results flagged for a closer look

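In 11 of 202 groups examined (the 4 HP and the 4 NP pools of each member) 1 value lay far from the others, as judged by the gap relative to the range. By chance such a gap arises in about 1 in 20 groups. In the HF-NP pool of 12 weeks Ndufaf3 was at 8.67 (other NP pools 8.90 to 8.94) and Ndufa2 at 9.05 (9.16), while Cox8b was at 5.11 (4.80 to 4.85) and Cox4i2 at 5.61 (5.43 to 5.46). In the LF-NP pool of 1 week Cox7b2 was at 3.68 (3.48) and Ndufa9 at 10.10 (10.27 to 10.28), and in that of 12 weeks Atp5g1 was at 12.32 (12.17 to 12.18). Among HP pools the LF-HP pool of 1 week stood apart for Cox8c at 5.01 (5.15 to 5.16) and Ndufb3 at 7.73 (7.32 to 7.39), the HF-HP pool of 1 week for Ndufa9 at 10.41 (10.32 to 10.33) and the HF-HP pool of 12 weeks for Ndufaf4 at 8.47 (8.16 to 8.19).

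In 14 members the HP minus NP difference had 1 sign in both pools of a fat level or week and the other sign in both of the other. The share of all genes that meet this rule was not counted, so the number is not read as a result about the members. The mean differences on LF and HF were 0.44 and -0.09 for Uqcrb, 0.32 and -0.15 for Ndufs5, 0.25 and -0.08 for Cox7b, and 0.03 and -0.19 for Cox7a2l. They were -0.14 and 0.13 for Cox15, -0.14 and 0.11 for Cox6b2, -0.10 and 0.05 for Cox8c, -0.08 and 0.10 for Ndufa8, and -0.04 and 0.13 for both Ndufaf7 and Ndufs7. By limma's interaction of protein with fat the adjusted p ran from 0.547 for Uqcrb to 0.78 for Ndufaf7. At 1 and 12 weeks the differences were -0.05 and 0.22 for Ndufab1, -0.04 and 0.23 for Ndufaf1, -0.06 and 0.25 for Ndufaf4, and -0.15 and 0.11 for Sdhaf1. The adjusted p of the interaction with week was 1.0 for these 4.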

How the results depend on the processing

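The HP minus NP median of the subunits ran from 0.11 with the 1-week pools alone to 0.18 when the HF-HP pool of 1 week was left out. Under all alternatives run it stayed above that of the assembly factors, which ran from -0.03 to 0.12. Counts of members at an unadjusted p under 0.05 differed between the alternatives. Higher in HP were 6 with the 1-week, 8 with the 12-week, 16 with the LF and 5 with the HF pools alone, 16 without the HF-NP and LF-HP pools of 12 weeks (an alternative chosen after seeing the data), and 21 to 42 when 1 pool was left out. Lower in HP were 0 without covariates, with the level filter and with the 12-week pools alone, 2 with array weights and with the 1-week pools alone, and 0 to 2 when 1 pool was left out. At an adjusted p under 0.05, 1 member (Cox11) passed with the level filter, and 1 passed at an adjusted p under 0.1. The median of the other isoforms was 0.45 with the level filter, under which 2 of these genes were left. Counting members with the same sign in all matched comparisons gave 46 in place of 18 with separated pools.

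Between HF and LF, leaving out 1 pool gave 0 to 2 members higher and 0 to 2 lower, and leaving out the HF-NP and LF-HP pools of 12 weeks gave 1 higher. Between weeks, members lower at 12 weeks were 16 with the LF and 2 with the HF pools alone, 8 without the HF-NP and LF-HP pools of 12 weeks, 12 with arrays centred on the genes above the median level (chosen after seeing the data) and 14 to 37 when 1 pool was left out. Members higher at 12 weeks were 1 with the level filter, with median-centred arrays, with the HF pools alone and without both pools, 0 with the LF pools alone, 5 with arrays centred on the genes above the median level, and 0 to 4 when 1 pool was left out. Subsets held fewer pools, and the cause of these shifts was not tested.

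Of 879 values of 42 named members under alternatives, 23 changed sign, in 10 members, none of which had passed the test. On the given strand alone 7.46% of subunit promoters held the ETS core. This was above the 4.77% of all promoters but below the 9.67% of those of genes above the median level. The ERRA element was in 0.0% of subunit promoters on that strand, against 0.24% and 0.146%. With matched HP and NP pools as blocks (the paired fit) 28 members were higher and 1 lower in HP at an unadjusted p under 0.05, 0 had an adjusted p under 0.05, and the medians of subunits and assembly factors stayed at 0.15 and 0.04. The labels give no replicate numbers, as each diet and week has 1 pool. The level of signal over background was not given in the table, which limits what can be said of members at low values such as Cox8b.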

Other observations

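In some small subunits of different complexes the HP minus NP difference was lower on HF than on LF. For protein by fat 4.95% of members had an unadjusted p under 0.05 in limma, below the 7.02% of all genes. Uqcrb, Cox7b, Ndufs5 and Atp5md, small subunits of complexes III, IV and I and of ATP synthase, were each higher in HP than NP pools on LF at both weeks. On HF at 1 week the HP pool of Uqcrb was at 11.92 and the NP pool at 12.03, that of Cox7b at 12.21 and 12.32, and that of Ndufs5 at 7.97 and 8.14, while Atp5md was at 10.97 and 10.92. On HF at 12 weeks the values were 12.01 and 12.09 for Uqcrb, 12.42 and 12.49 for Cox7b, 8.09 and 8.24 for Ndufs5, and 10.94 and 10.89 for Atp5md. Cycs, cytochrome c, which is no member, stood at 12.21 and 12.02 on LF and at 12.12 and 12.22 on HF at 1 week. These genes were singled out after their values were seen, and their likeness was not tested. A second probe set of Cox7b, with a lower mean (11.01), had an HP minus NP difference of 0.23, against 0.08 for the one used.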
